A study of Mus musculus with 9 samples.

Results

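Histone genes encode the proteins around which DNA is wound, and 54 histone probe sets were measured in mouse liver, of 28939 probe sets tested. A probe set is the group of probes on an array that is summarised to 1 value. Members were chosen by gene symbol, as probe sets whose platform annotation holds a symbol of the H1f, H2ac, H2bc, H3c or H4c families (formerly Hist1h to Hist4h). This choice was made with earlier results of these data known. Rows with identical values were counted once, which took 56 probe sets to 54. Of these, 30 carry a single symbol: 8 for linker histone H1, 4 for H2A, 9 for H2B, 3 for H3 and 6 for H4. The other 24 carry several symbols (the coding sequences within a histone class are known to be nearly identical), and they are described jointly and never as 1 gene. The annotations name 66 histone symbols, of which 30 have a probe set of their own, and the 54 probe sets have 38 distinct annotations.

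Livers of male C57/BL6 mice aged 8 to 9 weeks were profiled as whole tissue on 3 Affymetrix gene arrays for each of 3 genotypes. The first genotype is a cross of mice without NEMO in hepatocytes with mice that lack p21 in all tissues. It is called the labelled double knockout here, since its signal for Cdkn1a, the gene of the cell cycle inhibitor p21, was not reduced. The second is the NEMO knockout, in which Ikbkg, the gene of the NF-kappaB activator NEMO, was deleted in hepatocytes while the other liver cells keep it. The third is wild type. Both knockout genotypes share the loss of NEMO in hepatocytes, and no genotype lacks p21 alone. The question addressed by the study is how the loss of p21 changes a liver that already lacks NEMO, which is known for inflammation, hepatocyte death and regeneration. The labels give each array an identifier of its own and do not say more of the animals, so p-values measure the spread between these samples.

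The DNA of a nucleosome is wrapped around a core of H2A, H2B, H3 and H4, and H1 binds where the DNA enters and leaves. Most histone genes lie in clusters and are transcribed mainly in S phase, when new DNA has to be packed, and their mRNAs end in a stem-loop that binds SLBP instead of a poly(A) tail. Adult hepatocytes are mostly quiescent and re-enter the cell cycle after injury. Per the labels, a whole-transcript kit made the cDNA, and ribosomal RNA was not depleted first.

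The promoters of the 5 genes with a probe set of their own on which the results turn are shown because these genes differ in how they behave across the genotypes. They are RefSeq sequences on GRCm38.p6, from 180 bases before the annotated start to 30 bases after it, written 5′ to 3′ on the gene's strand. All 5 lie on chromosome 13: H2ac4 at chr13:23750908-23751117 (plus strand), H2bc3 at chr13:23746554-23746763 (plus strand), H2ac15 at chr13:21753883-21754092 (minus strand), H1f5 at chr13:21780596-21780805 (minus strand) and H1f2 at chr13:23738627-23738836 (plus strand). Capitals mark the motifs, searched on both strands. They are the CCAAT box, the TATA box letters (TATAAA), the octamer ATGCAAAT and the H1 box (AAACACA). The E2F-type letters TTTNGCGC were searched too, and no 2 of the motifs overlap in these windows.
H2ac4: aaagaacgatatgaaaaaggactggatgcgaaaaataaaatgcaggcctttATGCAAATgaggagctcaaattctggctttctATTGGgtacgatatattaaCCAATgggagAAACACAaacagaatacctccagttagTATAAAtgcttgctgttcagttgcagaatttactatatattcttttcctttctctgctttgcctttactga
H2bc3: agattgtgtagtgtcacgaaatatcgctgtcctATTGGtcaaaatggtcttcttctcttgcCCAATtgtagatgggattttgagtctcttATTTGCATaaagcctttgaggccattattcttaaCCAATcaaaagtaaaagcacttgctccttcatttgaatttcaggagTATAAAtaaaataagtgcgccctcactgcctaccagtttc
H2ac15: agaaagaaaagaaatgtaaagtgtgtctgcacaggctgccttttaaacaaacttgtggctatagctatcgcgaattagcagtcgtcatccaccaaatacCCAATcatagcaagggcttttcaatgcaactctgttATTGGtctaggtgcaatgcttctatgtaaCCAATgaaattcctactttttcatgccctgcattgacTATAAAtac
H1f5: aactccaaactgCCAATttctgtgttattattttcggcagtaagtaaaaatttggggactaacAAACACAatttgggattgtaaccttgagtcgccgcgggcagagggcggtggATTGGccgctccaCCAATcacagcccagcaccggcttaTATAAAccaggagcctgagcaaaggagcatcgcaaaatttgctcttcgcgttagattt
H1f2: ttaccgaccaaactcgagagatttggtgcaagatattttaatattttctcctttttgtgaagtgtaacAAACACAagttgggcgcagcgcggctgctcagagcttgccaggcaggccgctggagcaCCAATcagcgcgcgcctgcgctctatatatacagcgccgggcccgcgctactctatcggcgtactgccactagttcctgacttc
H2ac4 and H2bc3 hold the octamer, 129 and 90 bases before the start, and both hold CCAAT and TATAAA. The octamer is also in the whole windows, described below, of H2ac1, H2ac8, H2bc1, H2bc8, H2bc14 and H2bc18. None of these other genes passed the test between the knockouts. H1f5 and H1f2 hold the H1 box, 117 and 112 bases before the start, and its letters are also in H2ac4, 68 bases before the start. The H2ac15 window holds CCAAT 3 times and no octamer, and its TATAAA letters lie 21 bases after the annotated start.

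Across the whole windows of the RefSeq table, from 250 bases before to 50 after the start, 61 of the 66 symbols were matched. The table holds 63 windows of histone genes chosen by the same symbols among 32851 in all. CCAAT was present in 82.5% of the histone windows, against 37.4% of all windows. TATAAA was present in 54% of the histone windows, against 13.6% of all. The octamer was found in 20.6% of the histone windows and in 1.74% of all, and within the family it lay in 35.3% of 17 H2A and 46.7% of 15 H2B windows and in none of the 10 H1, 10 H3 and 11 H4 windows. The E2F-type letters had a like distribution, in 41.2% of H2A and 40% of H2B windows and in none of the H1, H3 and H4 windows, against 1.38% of all windows. The H1 box was found in 50% of H1 windows and in 7.18% of all. These are matches of letters, not measured binding sites.

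The check of the deleted genes came first. Ikbkg averaged 8.27 in the labelled double knockout, 8.35 in the NEMO knockout and 8.87 in wild type, in log2 units, and it fell by 0.52 ± 0.11 (SE) in the NEMO knockout (limma adjusted p = 0.0184). The probe set for Cdkn1a, which is annotated to 4930567H12Rik as well, averaged 10.78 in the labelled double knockout, 10.10 in the NEMO knockout and 8.67 in wild type. It was not lower in the genotype labelled as lacking p21 (difference from the NEMO knockout 0.68 ± 0.45, limma adjusted p = 0.803). Against wild type it rose by 2.11 ± 0.45 in the labelled double knockout (limma adjusted p = 0.0194). In the NEMO knockout its difference of 1.43 ± 0.45 from wild type did not pass the test (limma adjusted p = 0.101). Which part of the transcript the probes read was not analysed here. Arrays correlated at 0.994 to 0.996 within genotypes and at 0.986 to 0.995 between them. Array medians followed genotype: 6.53 to 6.55 in the labelled double knockout, 6.52 to 6.58 in the NEMO knockout and 6.47 to 6.48 in wild type. Small differences from wild type can therefore depend on whether the arrays are centred. Wild-type replicate 1 stood apart in its cell cycle genes: the mean of 19 mitosis genes was 6.64 on it, against 5.74 and 5.80 on the other wild-type arrays. NEMO knockout replicate 1 had the lowest array weight, 0.412. Counts of calls for the histone probe sets and for the replication and mitosis genes are given with and without these arrays.

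In the labelled double knockout against wild type, 32 of the 54 histone probe sets rose, none fell and 22 did not pass the test, which is 59.3% called. Among all probe sets, 9.32% were called in either direction, 5.81% were called higher and 3.51% lower. The median difference of the histone probe sets was 0.39 on the log2 scale, with a range of -0.17 to 1.83, and the median over all probe sets was -0.03. The largest rises were those of H2ac15 (1.83), the 10 joint H3 probe sets (1.42 to 1.66), the dim H2ac4 (1.48), H1f5 (1.16) and H2bc3 (1.06). The genotypes did not overlap, with all 3 labelled double knockout arrays above all 3 wild-type arrays, in 41 histone probe sets, against 11.6% of all probe sets. Since joint probe sets of 1 annotation are near copies, the count is 16 of 38 with 1 probe set per annotation and 9 of 30 among those with 1 symbol. It was 29 of 54 without wild-type replicate 1 and 32 without replicate 1 of the NEMO knockout. Some of the 38 annotations still overlap, such as those of joint H2B with 14 and 15 symbols and of joint H2A with 19 and 20. The 38 are therefore not separate measurements.

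In the NEMO knockout against wild type, 9 histone probe sets rose, none fell and 45 did not pass the test, which is 16.7% called, against 7.68% of all probe sets in either direction, 5.66% higher and 2.02% lower. The median difference was 0.09, against -0.04 over all probe sets, and the range was -0.54 to 0.96. The 9 were H2ac15, H1f5, H1f2, H4c6 and 5 of the 10 joint H3 probe sets. With 1 probe set per annotation 5 of 38 were called, and 4 of 30 among those with 1 symbol. Arrays of the genotypes did not overlap in 18 histone probe sets, the NEMO knockout being higher in each, against 11.4% of all probe sets that were higher in this way. The count changed with the arrays fitted. It was 14 without wild-type replicate 1 and 2 without replicate 2 or 3 of wild type. It was 3 without replicate 1 of the NEMO knockout, 2 without its replicate 2 or 3, and 4 without replicate 3 of the labelled double knockout. Each of these fits also has fewer arrays, so the counts do not single out an array. H2ac15 and H1f2 were called with each of the 9 arrays left out in turn. With the arrays centred on their medians, with only these 2 genotypes in the fit, or with the control probe sets kept, the count was 3.

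In the labelled double knockout relative to the NEMO knockout, 3 histone probe sets rose, none fell and 51 did not pass the test. This is 5.56% called, against 0.197% of all probe sets in either direction and 0.0864% higher, from 57 calls in all. The 3 were H2ac4, H2bc3 and the probe set shared by H4c17 and H4c11. The median difference was 0.30, against 0.00 over all probe sets, and the difference was above 0 in 50 of the 54. In 35 histone probe sets all labelled double knockout arrays were above all NEMO knockout arrays, against 4.99% of all probe sets, and in 1 (H1f2) all were below, against 5.75% of all. The number called was 7 without wild-type replicate 1 and 1 without labelled double knockout replicate 1 or 2. It was 0 without any array of the NEMO knockout, replicate 2 or 3 of wild type, or replicate 3 of the labelled double knockout. It was also 0 with only these 2 genotypes in the fit or with the control probe sets kept. At an unadjusted p under 0.05 limma gave 37 of 54 (68.5%) with all arrays and in each of these other fits, and 34 to 38 with an array left out. Joint probe sets of 1 annotation are near copies. With all arrays, 21 of 38 with 1 probe set per annotation and 14 of 30 with 1 symbol had such a p. All labelled double knockout arrays were above all NEMO knockout arrays in 19 of these 38 and 12 of these 30. Over all probe sets an unadjusted p under 0.05 was reached by 2158 of 28939 (7.46%) with all arrays, 6.97% with only these 2 genotypes and 6.78% with the control probe sets kept. The 3 comparisons share arrays in pairs, so their counts are not independent of each other.

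**Figure D1:**
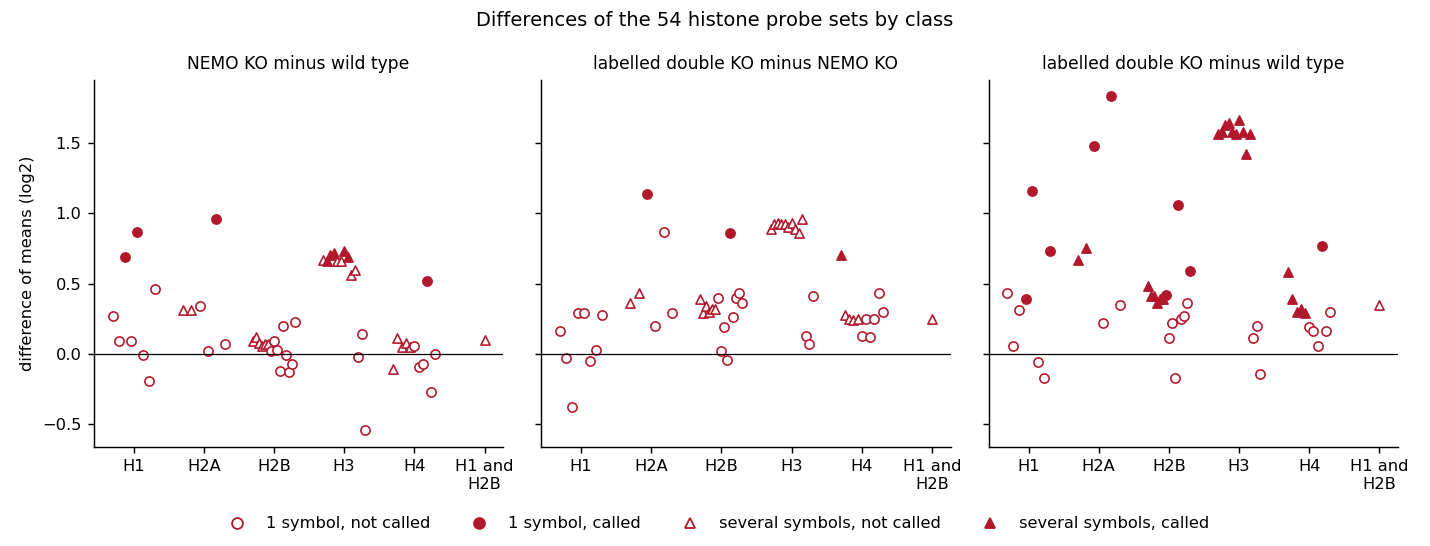
Differences of means (log2, vertical axis) of the 54 histone probe sets by histone class, for the NEMO knockout minus wild type, the labelled double knockout minus the NEMO knockout and the labelled double knockout minus wild type. Circles are probe sets with 1 symbol, triangles those with several, and filled symbols passed the test. The 10 joint H3 probe sets form a group at 1.42 to 1.66 in the last panel, while the 6 joint H2B probe sets lie at 0.36 to 0.48.

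H3 is the core histone whose tail carries many of the known regulatory modifications. The 10 joint H3 probe sets are annotated to 12 symbols each (H3c1, H3c2, H3c3, H3c4, H3c6, H3c7, H3c8, H3c10, H3c11, H3c13, H3c14 and H3c15), and they correlate with each other at 0.996 or more over the 9 arrays, so they are 1 measurement repeated rather than 10. Their median over the probe sets was 11.52, 11.98 and 11.69 on the labelled double knockout arrays. It was 10.66, 10.90 and 10.90 on the NEMO knockout arrays, and 10.52, 10.04 and 9.84 on the wild-type arrays. The 3 genotypes thus form 3 steps with no overlap, with wild-type replicate 1 the nearest to the NEMO knockout. All 10 rose in the labelled double knockout against wild type, by 1.42 to 1.66 (2.67-fold to 3.16-fold, limma adjusted p 0.00065 to 0.00106), and these 10 calls held with each array left out. Against the NEMO knockout the difference was 0.86 to 0.96, and none passed the test (limma adjusted p 0.0833 to 0.13, each with an unadjusted p under 0.05). Without wild-type replicate 1, 4 of the 10 passed in this comparison (limma adjusted p 0.0341 to 0.0669 over the 10), and without any other single array none did. Of the NEMO knockout against wild type, with differences of 0.56 to 0.73 and adjusted p of 0.0381 to 0.0857, 5 passed. Those 5 lay at 0.66 to 0.73 and lost the call without 6 or 7 of the 9 arrays, wild-type replicates 2 and 3 and each NEMO knockout array among them, with adjusted p up to 0.157. With the arrays centred on their medians, none of the 10 passed in this comparison (limma adjusted p 0.0529 to 0.107).

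The 3 H3 probe sets with a single symbol did not follow this pattern in the test. H3c4 had 6.63, 6.33 and 6.59 in the labelled double knockout, 6.42, 6.77 and 6.16 in the NEMO knockout and 6.32, 6.27 and 6.36 in wild type. H3c15 had 4.86, 5.05 and 5.38 in the labelled double knockout, 4.11, 5.23 and 4.74 in the NEMO knockout and 5.21, 4.80 and 5.69 in wild type. The genotypes overlap in both genes, and the SE of a difference is 0.29 for H3c15. H3c7, averaging 3.23 over all arrays, and H3c15, averaging 5.01, are among 5 members under the 25th percentile of all probe sets (5.05). The others are H2ac4 at 3.56, H2ac8 at 3.19 and H1f8 at 5.03.

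**Figure D2:**
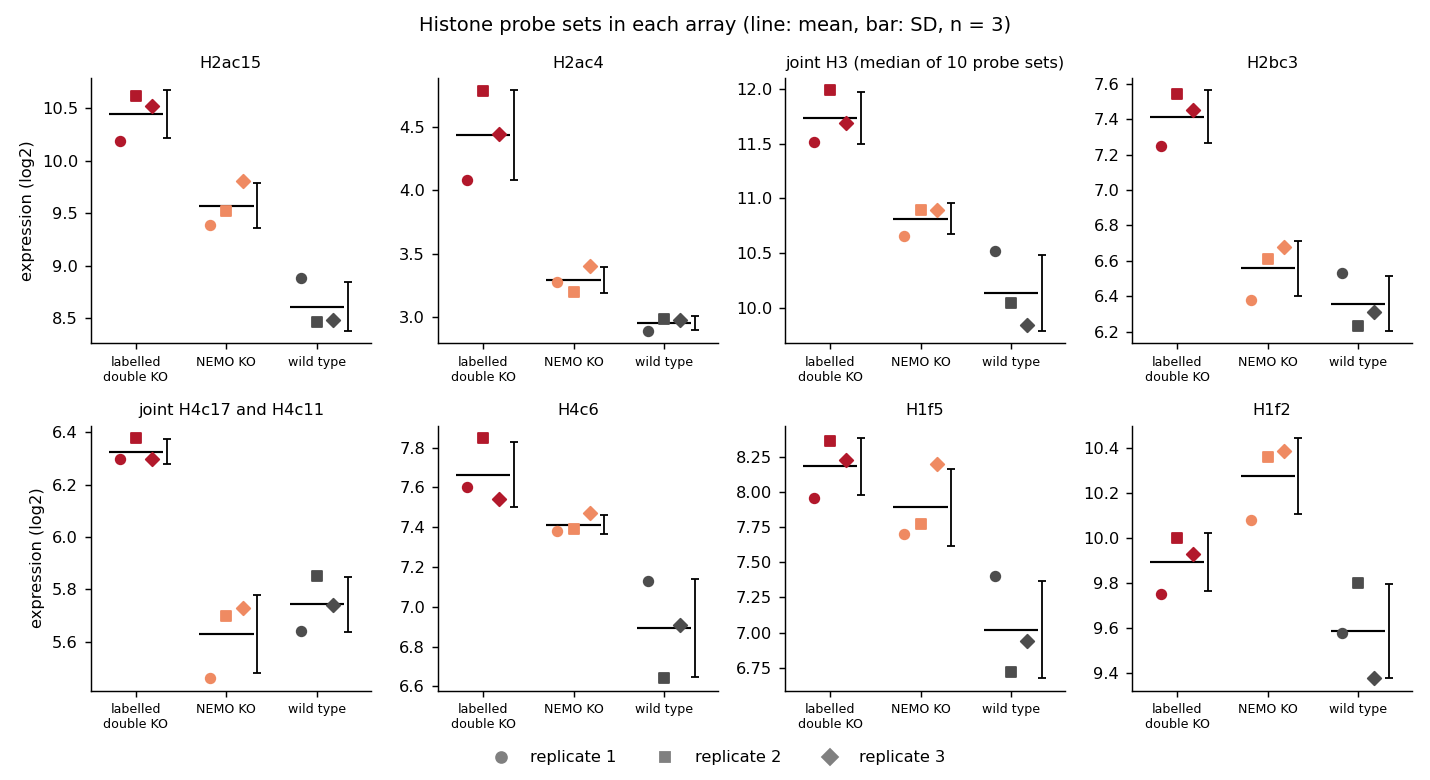
Expression (log2, vertical axis) of 8 histone probe sets or groups on each array, with the labelled double knockout, the NEMO knockout and wild type from left to right in each panel. Points are arrays with the shape giving the replicate, lines are means and bars are SDs (n = 3). H2ac15 and joint H3 step down over the 3 genotypes, H2ac4, H2bc3 and the H4c17 and H4c11 probe set are set apart in the labelled double knockout, and H1f2 is highest in the NEMO knockout; each panel has its own scale.

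H2A pairs with H2B in the nucleosome core. H2ac15 had 10.19, 10.62 and 10.52 in the labelled double knockout, 9.39, 9.52 and 9.81 in the NEMO knockout and 8.88, 8.47 and 8.48 in wild type. No 2 genotypes overlap, with the labelled double knockout highest and wild type lowest. H2ac15 rose by 1.83 ± 0.16 (3.56-fold) in the labelled double knockout against wild type (limma adjusted p = 0.000226), the largest difference among the 54 probe sets. It rose by 0.96 ± 0.16 (1.95-fold) in the NEMO knockout against wild type (limma adjusted p = 0.00565). The difference between the labelled double knockout and the NEMO knockout was 0.87 ± 0.16 and did not pass the test (limma adjusted p = 0.0876).

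H2ac4 was dim, with 4.08, 4.78 and 4.44 in the labelled double knockout, 3.28, 3.20 and 3.40 in the NEMO knockout and 2.89, 2.99 and 2.98 in wild type. All 3 labelled double knockout arrays were above all others. All 9 values lie under the 25th percentile of all probe sets (5.05), and whether the signal was above background was not tested, so the differences are given on the log2 scale only. It rose by 1.14 ± 0.15 in the labelled double knockout relative to the NEMO knockout (limma adjusted p = 0.0348) and by 1.48 ± 0.15 against wild type (limma adjusted p = 0.000457). The first call was lost without any NEMO knockout array, replicate 2 or 3 of wild type, or replicate 3 of the labelled double knockout, with adjusted p up to 0.152 and a difference that stayed at 0.97 to 1.31. The second held with each array left out.

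Both joint H2A probe sets, whose annotations also name H2ax, a pseudogene and H3c4, rose in the labelled double knockout against wild type. The probe set of 19 symbols had 10.68, 11.09 and 10.83 in the labelled double knockout, 10.37, 10.44 and 10.48 in the NEMO knockout and 10.27, 10.02 and 10.07 in wild type. It rose by 0.75 ± 0.11 against wild type (limma adjusted p = 0.00287). The probe set of 20 symbols, which adds H2aj, rose by 0.67 ± 0.11 (limma adjusted p = 0.00587). Neither passed the test in the comparisons with the NEMO knockout, where both differ by 0.31 from wild type and by 0.43 and 0.36 from the labelled double knockout, without overlap of arrays. H2ac8 (0.35, adjusted p 0.0803 against wild type) and H2ac1, a testis histone (0.22, adjusted p 0.275), passed no test.

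H2B had 15 probe sets, and none passed the test in the NEMO knockout against wild type, where their differences were -0.13 to 0.23 and none had an unadjusted p under 0.05 with limma. In the labelled double knockout 9 of the 15 rose against wild type and 1, H2bc3, rose against the NEMO knockout. Among all probe sets 5.81% and 0.0864% were called higher in these comparisons. Of the 9 that rose against wild type, 6 are joint probe sets and 3 have 1 symbol. H2bc3 had 7.25, 7.54 and 7.45 in the labelled double knockout, 6.38, 6.61 and 6.68 in the NEMO knockout and 6.53, 6.23 and 6.31 in wild type. The NEMO knockout and wild type overlap, and the labelled double knockout stands above both. H2bc3 rose by 0.86 ± 0.11 (1.81-fold) against the NEMO knockout (limma adjusted p = 0.0348) and by 1.06 ± 0.11 (2.08-fold) against wild type (limma adjusted p = 0.000655). The first call was lost without any single array other than wild-type replicate 1 (adjusted p up to 0.152, difference 0.77 to 0.94), and the second held with each array left out.

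The 6 joint H2B probe sets, annotated to 14 or 15 symbols, rose in the labelled double knockout against wild type by 0.36 to 0.48 (limma adjusted p 0.0122 to 0.0407). For example, the median of the 3 probe sets of 14 symbols was 10.78, 11.01 and 10.94 in the labelled double knockout, 10.46, 10.68 and 10.63 in the NEMO knockout and 10.59, 10.47 and 10.48 in wild type. The NEMO knockout and wild type overlap, and the difference between them was 0.06 to 0.12 over the 6 probe sets. These calls are less firm than those of H3: each was lost without wild-type replicate 3 and without labelled double knockout replicate 3, with adjusted p up to 0.134.

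Of the other H2B probe sets with 1 symbol, H2bc14 and H2bc18 rose in the labelled double knockout against wild type. H2bc14 had 9.10, 9.32 and 9.21 in the labelled double knockout, 8.68, 8.86 and 8.88 in the NEMO knockout and 8.91, 8.72 and 8.74 in wild type, and it rose by 0.42 ± 0.09 (limma adjusted p = 0.0176). H2bc18, which lies in the cluster on chromosome 3, had 6.58, 7.12 and 6.83 in the labelled double knockout, 6.40, 6.62 and 6.44 in the NEMO knockout and 6.46, 6.24 and 6.08 in wild type, and it rose by 0.59 ± 0.14 (limma adjusted p = 0.0322). Both calls were lost without replicate 2 or 3 of either genotype, and that of H2bc18 also without NEMO knockout replicate 3 (adjusted p up to 0.0663 and 0.114). H2bc4 differed from the rest of the class in being the single histone probe set with all labelled double knockout arrays below all wild-type arrays. It had 12.03, 11.92 and 12.02 in the labelled double knockout, 11.97, 12.08 and 12.05 in the NEMO knockout and 12.16, 12.05 and 12.25 in wild type. Its difference of -0.17 ± 0.07 did not pass the test (limma adjusted p = 0.228). H2bc1, H2bc8, H2bc9, H2bc21 and H2bc22 passed no test and lay at 0.11 to 0.36 in the labelled double knockout against wild type.

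H4 pairs with H3 in the core. Of 11 H4 probe sets, 6 rose in the labelled double knockout against wild type, 1 rose against the NEMO knockout and 1 rose in the NEMO knockout against wild type. Among all probe sets 5.81%, 0.0864% and 5.66% were called higher in these comparisons. Of the 6, 5 are joint probe sets, and among the 6 H4 probe sets with 1 symbol 1 rose. The 1 of 11 (9.09%) in the NEMO knockout lies near the share of all probe sets. H4c6 had 7.60, 7.85 and 7.54 in the labelled double knockout, 7.38, 7.39 and 7.47 in the NEMO knockout and 7.13, 6.64 and 6.91 in wild type. It rose by 0.77 ± 0.12 (1.7-fold) in the labelled double knockout against wild type (limma adjusted p = 0.00461), with every array left out in turn as well. In the NEMO knockout it rose by 0.52 ± 0.12 against wild type (limma adjusted p = 0.0337), a call that was lost without any NEMO knockout array, replicate 2 or 3 of wild type, or replicate 1 of the labelled double knockout (adjusted p up to 0.116).

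The probe set shared by H4c17 and H4c11 had 6.30, 6.38 and 6.30 in the labelled double knockout, 5.46, 5.70 and 5.73 in the NEMO knockout and 5.64, 5.85 and 5.74 in wild type. Here wild type lies level with the NEMO knockout and the labelled double knockout stands above both. It rose by 0.70 ± 0.09 (1.62-fold) against the NEMO knockout (limma adjusted p = 0.0348) and by 0.58 ± 0.09 (1.5-fold) against wild type (limma adjusted p = 0.00346). The first call was lost without any single array other than wild-type replicate 1 (adjusted p up to 0.135), and the second held throughout. The 4 joint H4 probe sets of 11 symbols rose against wild type by 0.29 to 0.39 (limma adjusted p 0.00656 to 0.016). Their median was 11.68, 11.81 and 11.74 in the labelled double knockout, 11.46, 11.50 and 11.50 in the NEMO knockout and 11.37, 11.42 and 11.48 in wild type. The NEMO knockout and wild type overlap, and the labelled double knockout stands above both by less than it does in joint H3. H4c3, H4c4, H4c8, H4c9 and H4c14 passed no test and lay at 0.06 to 0.30 in the labelled double knockout against wild type.

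H1, the linker histone, had 8 probe sets with 1 symbol. In the labelled double knockout against wild type 3 of the 8 rose (37.5%, median difference 0.35), against 5.81% of all probe sets. In the NEMO knockout against wild type 2 of the 8 rose (25%, median 0.18), against 5.66% of all. Between the knockouts limma called none, 2 had an unadjusted p under 0.05, and the median was 0.09. H1f5 had 7.96, 8.36 and 8.23 in the labelled double knockout, 7.70, 7.77 and 8.20 in the NEMO knockout and 7.40, 6.72 and 6.94 in wild type. Both knockouts lie above wild type and overlap each other. H1f5 rose by 1.16 ± 0.19 (2.24-fold) in the labelled double knockout against wild type (limma adjusted p = 0.00507) and by 0.87 ± 0.19 (1.83-fold) in the NEMO knockout against wild type (limma adjusted p = 0.0225). The second call was lost without replicate 2 or 3 of either genotype (adjusted p up to 0.0834).

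H1f2 had another order. It had 9.754, 10.005 and 9.930 in the labelled double knockout, 10.084, 10.359 and 10.390 in the NEMO knockout and 9.578, 9.802 and 9.381 in wild type. The NEMO knockout arrays were above all others, and the labelled double knockout overlapped wild type. H1f2 rose by 0.69 ± 0.12 (1.61-fold) in the NEMO knockout against wild type (limma adjusted p = 0.00923). The labelled double knockout differed from the NEMO knockout by -0.38 ± 0.12 (limma adjusted p = 0.49) and from wild type by 0.31 ± 0.12 (limma adjusted p = 0.188), and neither passed the test. H1f2 is the probe set furthest below 0 in the comparison of the knockouts, and its RefSeq promoter lies on the same stretch of chromosome 13 as those of H2bc3 and H2ac4, which rose in that comparison.

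Of the remaining H1 genes, H1f10 and H1f1 rose in the labelled double knockout against wild type. H1f10, an H1 variant on chromosome 6 outside the clusters, had 8.05, 8.28 and 7.84 in the labelled double knockout, 7.88, 7.85 and 7.61 in the NEMO knockout and 7.57, 7.30 and 7.10 in wild type, and it rose by 0.73 ± 0.14 (limma adjusted p = 0.0123). H1f1 had 7.45, 7.55 and 7.15 in the labelled double knockout, 7.07, 7.10 and 7.10 in the NEMO knockout and 7.10, 6.97 and 6.91 in wild type, and it rose by 0.39 ± 0.10 (limma adjusted p = 0.0451), a call lost without any single array other than labelled double knockout replicate 3 (adjusted p up to 0.147). H1f3 differed by 0.43 ± 0.19 (limma adjusted p = 0.252). The germ cell variants H1f6 and H1f7 of the testis and H1f8 of the oocyte lay at -0.17 to 0.06 and passed no test, and neither did the probe set shared by H2bc6 and H1f4 (0.35, adjusted p 0.133). No probe set annotation used here carried the symbol H1f0, so no value is given for it.

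The rest of the machinery that supplies histones was read from lists of genes, with 1 probe set per gene. Of 16 genes for the transcription and 3′ processing of histone mRNA, none passed the test in any comparison with limma, and the list medians were -0.03 in the labelled double knockout against wild type, 0.01 against the NEMO knockout and -0.03 in the NEMO knockout against wild type. At an unadjusted p under 0.05 limma gave 2, 0 and 3 of the 16 in these comparisons, against 21%, 7.46% and 20.3% of all probe sets. None of these counts is above the share of all probe sets. The largest differences were -0.40 ± 0.11 for Cpsf2, a cleavage factor subunit, in the NEMO knockout against wild type (limma adjusted p = 0.0654) and -0.28 and -0.26 for Cpsf2 and Hinfp in the labelled double knockout against wild type. Ncbp1, of the cap-binding complex, lay at -0.23 in the NEMO knockout against wild type, and Casp8ap2, a histone processing factor, at 0.21 in the labelled double knockout relative to the NEMO knockout. Slbp and Npat, chosen after their values were seen, encode the stem-loop binding protein and the coactivator of histone transcription. Slbp had 7.41, 7.66 and 7.64 in the labelled double knockout, 7.57, 7.51 and 7.78 in the NEMO knockout and 7.74, 7.53 and 7.63 in wild type. Npat had 7.50, 7.76 and 7.62 in the labelled double knockout, 7.20, 7.69 and 7.65 in the NEMO knockout and 7.37, 7.43 and 7.41 in wild type. The 3 genotypes overlap in Slbp. In Npat the knockouts overlap, and the labelled double knockout arrays lie above wild type by a difference that did not pass the test (0.22 ± 0.13, limma adjusted p = 0.379).

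Of 23 histone chaperones and assembly factors, 21 were measured. In the labelled double knockout 6 rose and 1 fell against wild type, and in the NEMO knockout 2 rose and 1 fell against wild type. Between the knockouts none passed the test with limma, where 3 had an unadjusted p under 0.05, against 7.46% of all probe sets. Among all probe sets 5.81% were called higher and 3.51% lower in the labelled double knockout against wild type. In the NEMO knockout these shares were 5.66% and 2.02%, and nothing is read from the 2 and 1 chaperones called there. With an array left out, 3 to 6 rose in the labelled double knockout and 0 to 4 in the NEMO knockout against wild type, and 0 to 1 between the knockouts. Asf1b, which hands H3 and H4 to the assembly factors, had 8.09, 8.08 and 8.33 in the labelled double knockout, 7.36 (to 2 decimals) on all 3 NEMO knockout arrays, and 7.29, 6.67 and 6.69 in wild type. It rose by 1.28 ± 0.15 (2.43-fold) in the labelled double knockout against wild type (limma adjusted p = 0.00103) and differed by 0.80 ± 0.15 from the NEMO knockout (limma adjusted p = 0.11). Chaf1b, a subunit of chromatin assembly factor 1, rose by 1.12 ± 0.24 against wild type (limma adjusted p = 0.0172), and Oip5 by 1.03 ± 0.16 (limma adjusted p = 0.0045). Oip5, part of a complex needed for loading the centromeric histone, also rose in the NEMO knockout against wild type, by 0.74 ± 0.16 (limma adjusted p = 0.0239). Mis18a of the same complex rose in that comparison by 0.39 ± 0.10 (limma adjusted p = 0.0396). Rbbp4, a histone-binding subunit of several chromatin complexes, went the other way. It had 10.24, 10.28 and 10.32 in the labelled double knockout, 10.37, 10.39 and 10.38 in the NEMO knockout and 10.82, 10.73 and 10.87 in wild type, and it fell by 0.53 in the labelled double knockout (limma adjusted p = 0.000836) and by 0.43 in the NEMO knockout (limma adjusted p = 0.00271) against wild type.

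Of 10 histone variant genes with other symbols, 9 were measured. In each knockout 2 of the 9 rose against wild type, where 5.81% (labelled double knockout) and 5.66% (NEMO knockout) of all probe sets were called higher. Cenpa, the centromeric H3, rose 2-fold in the labelled double knockout (limma adjusted p = 0.00181) and by 0.74 ± 0.13 in the NEMO knockout (limma adjusted p = 0.00914) against wild type. H2az1 rose by 0.66 ± 0.11 in the labelled double knockout (limma adjusted p = 0.00589) and by 0.46 ± 0.11 in the NEMO knockout (limma adjusted p = 0.0376) against wild type. The other 7 passed no test. H2ax, whose phosphorylated protein marks DNA breaks, had 8.03, 8.32 and 8.43 in the labelled double knockout, 7.75, 7.96 and 7.83 in the NEMO knockout and 8.03, 8.06 and 7.82 in wild type. Its difference was 0.41 ± 0.11 between the knockouts (limma adjusted p = 0.335) and -0.12 ± 0.11 between the NEMO knockout and wild type (limma adjusted p = 0.604). H2aj lay at 0.28 ± 0.12 between the knockouts (limma adjusted p = 0.667).

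Genes of S phase and of mitosis also differed between the genotypes. Of 24 measured DNA replication genes, 20 rose in the labelled double knockout against wild type, 2 rose in it against the NEMO knockout and 5 rose in the NEMO knockout against wild type, and none fell. Among all probe sets 5.81%, 0.0864% and 5.66% were called higher in these comparisons. The list medians were 0.65, 0.38 and 0.32 in these comparisons. Without wild-type replicate 1 the counts were 18, 1 and 6, and without NEMO knockout replicate 1 they were 19, 0 and 1. With each of the 9 arrays left out in turn they were 15 to 19, 0 to 1 and 0 to 7, with medians of 0.59 to 0.81, 0.34 to 0.47 and 0.24 to 0.36. In the NEMO knockout against wild type none of the 24 was called without replicate 2 or 3 of either genotype, and 3 were without labelled double knockout replicate 3. Rrm2, which makes deoxyribonucleotides, had 8.93, 9.40 and 9.37 in the labelled double knockout, 7.05, 8.00 and 7.70 in the NEMO knockout and 6.64, 6.27 and 6.51 in wild type. It rose by 1.65 ± 0.23 (3.14-fold) in the labelled double knockout relative to the NEMO knockout (limma adjusted p = 0.0348). Ccne2, a cyclin of S phase entry, had 6.12, 6.14 and 6.32 in the labelled double knockout, 5.36, 5.32 and 5.35 in the NEMO knockout and 5.32, 5.18 and 4.91 in wild type, and it rose by 0.85 ± 0.10 (1.8-fold) against the NEMO knockout (limma adjusted p = 0.0284). In Ccne2 as in H2bc3 the NEMO knockout lies nearer to wild type than to the labelled double knockout. Of the helicase subunits, Mcm6 rose by 1.75 ± 0.26 in the labelled double knockout (limma adjusted p = 0.00293) and by 1.10 ± 0.26 in the NEMO knockout (limma adjusted p = 0.0308) against wild type.

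Of 19 measured mitosis genes, 19 rose in the labelled double knockout against wild type, 15 rose in the NEMO knockout against wild type, and 1, Prc1, rose in the labelled double knockout relative to the NEMO knockout. The list medians were 2.10, 1.02 and 0.93 in this order, and among all probe sets 5.81%, 5.66% and 0.0864% were called higher. Without wild-type replicate 1 the counts were 19, 19 and 6 and the medians 2.39, 1.33 and 0.93, and without NEMO knockout replicate 1 the counts were 19, 15 and 0. With any single array other than wild-type replicate 1 left out, no mitosis gene was called between the knockouts, and in the NEMO knockout against wild type 11 to 15 were. Mki67, a marker of cycling cells, had 8.93, 9.10 and 9.14 in the labelled double knockout, 8.04, 8.62 and 8.20 in the NEMO knockout and 7.26, 6.03 and 5.81 in wild type. Prc1, which bundles microtubules in dividing cells, had 7.13, 7.41 and 7.43 in the labelled double knockout, 5.99, 6.28 and 6.22 in the NEMO knockout and 5.66, 5.23 and 5.07 in wild type, and it rose by 1.16 ± 0.15 between the knockouts (limma adjusted p = 0.0348). The mean of the 19 genes was 8.07 to 8.24 in the labelled double knockout, 7.13 to 7.58 in the NEMO knockout and 5.74 to 6.64 in wild type. The part of this difference in cell cycle genes in the histone differences was not tested.

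**Figure D3:**
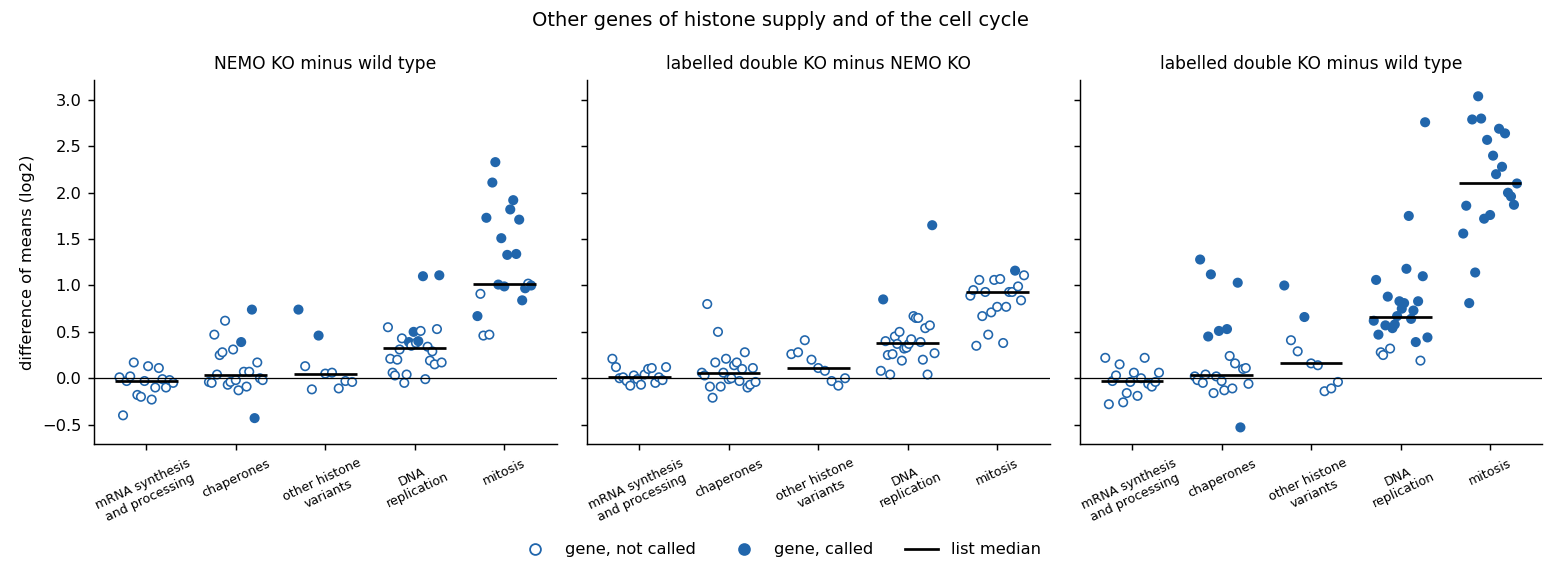
Differences of means (log2, vertical axis) of genes in 5 lists (horizontal axis) for the NEMO knockout minus wild type, the labelled double knockout minus the NEMO knockout and the labelled double knockout minus wild type. Circles are genes, filled ones passed the test, and lines are list medians. The histone mRNA list stays around 0, at -0.03, 0.01 and -0.03, while the mitosis list lies at 1.02, 0.93 and 2.10.

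Array by array, joint H3 and the replication genes had part of their order in common. The mean of the 24 replication genes was 7.24 to 7.55 in the labelled double knockout, 6.93 to 7.05 in the NEMO knockout and 6.53 to 6.82 in wild type. Labelled double knockout replicate 1 was the lowest of its genotype in both measures, so was NEMO knockout replicate 1, and wild-type replicate 1 was the highest of its genotype in both. The other arrays did not keep one order: in wild type replicate 2 was above replicate 3 in joint H3 (10.04, against 9.84) and below it in the replication mean (6.53, against 6.59). The joint H4 probe sets had the order of joint H3 in the labelled double knockout (11.68, 11.81 and 11.74), and replicate 1 was also their lowest NEMO knockout array (11.46). Within wild type they had the reverse order of joint H3, with replicate 1 the lowest at 11.37 and replicate 3 the highest at 11.48. This is a description of 9 arrays, and the joint signal of H4 and that of H3 each add up many genes.

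**Figure D4:**
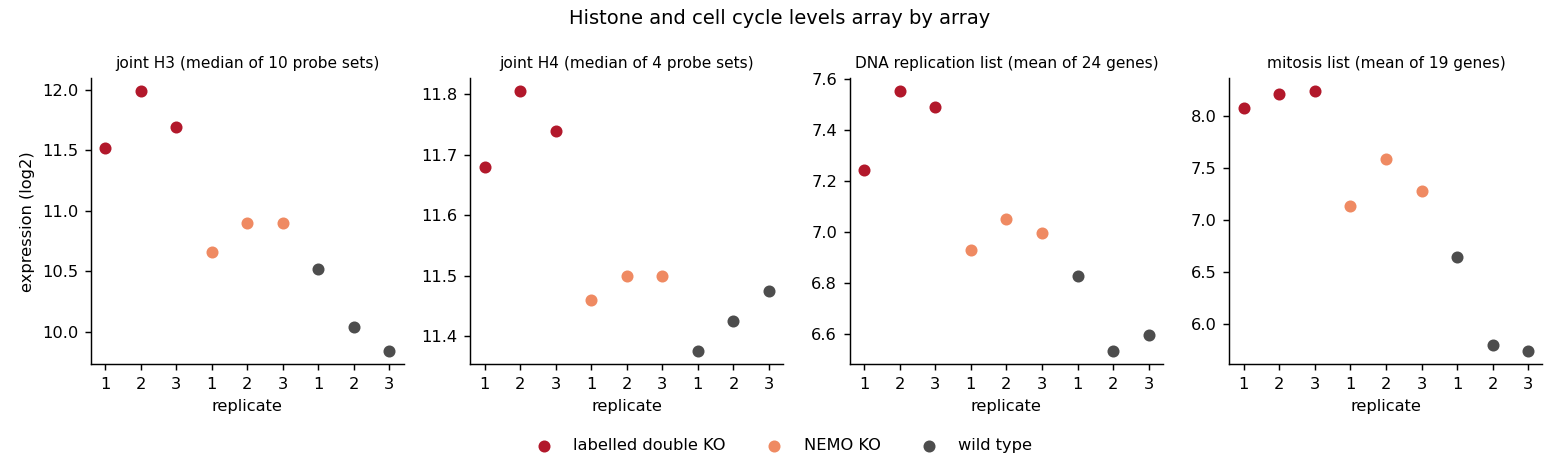
Levels (log2, vertical axis) on each of the 9 arrays for the labelled double knockout, the NEMO knockout and wild type: the median of the 10 joint H3 probe sets, the median of the 4 joint H4 probe sets, and the means of 24 DNA replication and 19 mitosis genes. Points are arrays. Wild-type replicate 1 is the highest wild-type array in joint H3 (10.52) and in the mitosis mean (6.64) and the lowest in joint H4 (11.37).

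Markers of monocytes, macrophages and stellate cells also differed between the knockouts and wild type. In bulk tissue, fewer cells of a type and less RNA per cell cannot be told apart, nor can their increase. Of 12 monocyte and macrophage markers 10 rose in each knockout against wild type, with means of 8.38 to 8.51 in the labelled double knockout, 8.39 to 8.62 in the NEMO knockout and 7.30 to 7.40 in wild type. Of 10 stellate cell markers 8 rose in both comparisons, with means of 9.58 to 9.71 in the labelled double knockout, 9.58 to 9.85 in the NEMO knockout and 8.49 to 8.68 in wild type. Of 6 measured cholangiocyte markers 2 rose in both, with means of 6.15 to 6.60 in the labelled double knockout, 6.21 to 6.39 in the NEMO knockout and 5.86 to 6.01 in wild type. In the NEMO knockout 3 of 10 T, NK and B cell markers and 2 of 8 neutrophil markers rose and 1 of 5 erythroid markers fell against wild type. In the labelled double knockout against wild type 1 of 8 neutrophil markers rose, 1 of 5 erythroid markers fell, and limma called none of the 10 T, NK and B cell markers, of which 1 had an unadjusted p under 0.05. Among all probe sets 5.81% were called higher and 3.51% lower in the labelled double knockout, and 5.66% higher and 2.02% lower in the NEMO knockout, and nothing is read from a count of 1 in a list. With an array left out, the counts that rose against wild type in the NEMO knockout were 1 to 4 for T, NK and B cell, 1 to 3 for neutrophil and 0 to 2 for cholangiocyte markers. Hepatocyte markers, with means of 12.76 to 12.95 in the labelled double knockout, 12.81 to 12.89 in the NEMO knockout and 12.81 to 12.98 in wild type, were not called: limma called none of the 10 in any comparison, and 1 had an unadjusted p under 0.05 in the labelled double knockout against wild type. The part of other cells in the histone differences against wild type was not tested. Between the knockouts, where H2ac4, H2bc3 and the H4c17 and H4c11 probe set rose, no marker of these 7 lists passed the test, and 10 had an unadjusted p under 0.05. The T, NK and B cell list had a median of -0.23 in this comparison, with 5 of 10 markers lower without overlap of arrays and 4 at an unadjusted p under 0.05. The neutrophil list had a median of -0.18, with 3 of 8 lower without overlap and 3 at an unadjusted p under 0.05. Among all probe sets 5.75% were lower without overlap and 3.99% were lower at an unadjusted p under 0.05. The part of these cells in the histone differences between the knockouts was not tested.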

How the data were processed

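Whole-liver RNA of mice was measured on 9 Affymetrix gene arrays. The authors deposited 1 log2 expression value per probe set and array, made with RMA per the submitters' processing notes. The log base was inferred from RMA's usual scale and the range of the values. The genome build and software versions were not given in the sources used here. The table holds 35556 probe sets, of which 6617 without annotation, with identifiers below the annotated ones, were taken to be controls and left out. RMA's quantile step makes array distributions alike, so a change of all RNA would not be seen. Arrays give no read depth, and their number limits the precision.

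Groups came from the labels, which give no batch. limma 3.58.1 (R 4.3.3; lmFit, then eBayes) fitted the differences on all 9 arrays with a mean per genotype. P-values were adjusted by Benjamini-Hochberg over the 28939 probe sets tested, with 0.05 as the threshold for a call. The fit was tested on simulated data. Levels and differences are on the log2 scale, differences have their SE, and n = 3 arrays per genotype. No level is set against that of another probe set.

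Members, gene lists and the naming rule were chosen with earlier results of these data known. The rule names members called in any comparison (at most 30), the 6 largest differences per comparison, H1f0, and of each list up to 4 called genes, or the 2 largest where none was called. In lists, the probe set with the highest mean stood for a gene. Names came from the platform annotation, where 21789 of the tested probe sets have 1 symbol, 1621 several and 5529 none. Near-identical histone genes can share signal. Alternatives left out each array or changed the normalisation, filter, variance model, array weights, samples fitted, controls, members or added a replicate block.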

Additional observations from a re-analysis of the deposited data

How the results depend on the processing

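The medians of the histone probe sets kept their sign in each comparison under each alternative, and no named probe set reversed. The counts of calls depended more on the settings. For the NEMO knockout against wild type, 9 as reported, the count was 2 to 14 with an array left out, 3 with arrays centred on their medians, 3 with only the 2 genotypes compared, 3 with the control probe sets kept, 4 among probe sets with 1 symbol and 5 with 1 probe set per annotation. For the labelled double knockout relative to the NEMO knockout, 3 as reported, it was 0 to 7 with an array left out, 0 with only the 2 genotypes compared and 0 with control probe sets kept, where limma gave 37 of 54 at an unadjusted p under 0.05 in both cases, against 6.97% and 6.78% of all probe sets. In the main fit, where it was 37 of 54 too, 21 of 38 had such a p with 1 probe set per annotation. For the labelled double knockout against wild type, 32 as reported, the count of calls was 23 to 32 with an array left out, 9 among probe sets with 1 symbol and 16 per annotation. Of the named calls, 20 of 29 held under each alternative in the labelled double knockout against wild type, none of 3 against the NEMO knockout and 2 of 9 in the NEMO knockout against wild type. Why the counts changed was not tested, and some settings hold fewer members or arrays by construction. With the replicate number as a block, the counts were 31 in the labelled double knockout against wild type, 1 against the NEMO knockout and 4 in the NEMO knockout against wild type. Between the knockouts, H2ac4 (adjusted p 0.0588) and H2bc3 (0.0872) lost the call under the block and the H4c17 and H4c11 probe set kept it (0.0392). The labels do not say whether the numbers pair the samples, and the arrays were treated as unpaired because not every same-number correlation was above 0.1. Deviations of same-numbered arrays correlated at -0.12 to 0.09, 0.08 to 0.39 and 0.01 to 0.18 in these comparisons. Between the knockouts, arrays of different number correlated at -0.30 to 0.11, and each array but NEMO knockout replicate 2 correlated best with its own number, which is a hint from the data and not from the design. The counts with an array left out for the lists of genes were chosen after seeing the data.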
